A study of Mus musculus with 6 samples.

Results

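The genes described here are 47 DNA repair and damage response genes, out of 61880 rows in the deposited count matrix, measured in mammary epithelial cell isolates of *fat-1* and WT mice. Members were found by their gene symbol, and each of the 47 symbols matched a single row. A total of 43 members were listed for their function in repair, and 4 more (*Rpa1*, *Sfr1*, *Paxx* and *Prpf19*) were added and were chosen by the measured difference of rows of their loci between the genotypes. For those 4, the genotype values are a description and were not tested. All 47 members passed the filter on low counts, both as rows and as sums of the rows of a locus.

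All mice were female, on the FVB/NJ background and 6 to 8 weeks old, which is within puberty. They were kept for life on the parental AIN93G-based diet with 10% fat by weight from safflower oil, so both genotypes received the same *n*-6 PUFA. The *fat-1* group (3 samples) carried a *Caenorhabditis elegans* *n*-3 desaturase transgene that makes *n*-3 PUFA from *n*-6 PUFA in all tissues, and the WT group (3 samples) did not carry it. The sources used here do not give the promoter of the transgene. Each sample was a pool of inguinal glands from 2 to 3 mice, although another paragraph of the methods gives 6 to 8 pooled mice, and lymph nodes were removed before digestion.

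Cells meet DNA damage with several pathways that work on different lesions. Replication protein A coats single-stranded DNA, the replication factor C clamp loader places the PCNA ring on DNA, and both serve replication as well as repair. Broken DNA ends are rejoined directly by the Ku and DNA-PK machinery or copied from a sister chromatid by BRCA1, BRCA2 and their partners, while ATM, ATR and the CHEK kinases signal the damage to p53. In the mammary gland this biology is best known through BRCA1 and BRCA2, whose inherited loss raises the risk of breast cancer in women.

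The isolates were not pure epithelium. Total counts lay between 204539059 and 232148824 for each sample. Luminal markers were present at 1 CPM (counts scaled to normalised library size) or more in every sample for 18 of 18 loci, and basal markers for 9 of 12. Immune markers reached that level for 19 of 20 loci and fibroblast markers for 8 of 8, but adipocyte markers for 1 of 6, and *Lep* was at 0 in WT sample 3. The summed luminal level ranged from 1267 to 5719 CPM in *fat-1* and from 1343 to 4330 CPM in WT. The summed immune level ranged from 2568 to 4560 CPM and from 2506 to 4555 CPM, respectively, so the genotypes overlapped in both kinds of marker. That immune sum includes *Cd68*, which did not run with it and was highest, at 860 CPM, in *fat-1* sample 1, where the *fat-1* sum was lowest. In these bulk samples, fewer cells of a type and less RNA per cell cannot be told apart.

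In *Rpa1*, *Sfr1* and *Prpf19*, the row of the locus that carries no gene symbol was higher in *fat-1* than in WT samples. The mean of the row with the symbol was lower in *fat-1*, and the locus sums overlapped. WT samples also held counts in the row without a symbol for *Rpa1* and *Sfr1*, but 0 for *Prpf19*. The assembly by StringTie numbers its loci, and 14 of the 47 members had such a row without a symbol beside the row with the symbol. The share of locus counts held by the symbol row did not overlap between genotypes for these 3 genes and *Paxx*, which were chosen because rows of their loci differed. It overlapped for all 10 other members with such a row. In *Chek1*, however, the symbol row holds little of the locus, and other rows of that locus did not overlap, as given below. Over the whole matrix, the shares did not overlap in 8.40% of 4073 loci with a single symbol row and a row without a symbol. The mean shares differed by more than 10 percentage points in 23.7% of them. Because the 4 genes were picked for differences of their rows, which also set these shares, nothing can be read from the comparison.

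*Rpa1* encodes the large DNA-binding subunit of replication protein A (chromosome 11, 75298166 to 75348324, minus strand, GRCm38). Its symbol row had 23.9, 22.2 and 21.6 CPM in *fat-1* 1, 2 and 3 against 52.8, 48.2 and 48.5 CPM in WT 1, 2 and 3. The row without a symbol had 52.7, 43.2 and 42.9 CPM in *fat-1* against 9.37, 15.6 and 18.3 CPM in WT. Neither row overlapped between genotypes, and they moved in opposite directions, with log2 fold changes of −1.14 (SE 0.12) and 1.68 (SE 0.28) for *fat-1* relative to WT. Added together, the rows of the *Rpa1* locus gave 76.2, 65.2 and 64.7 CPM in *fat-1* against 62.3, 63.7 and 67.0 CPM in WT. These sums overlapped, with a log2 fold change of 0.09 (SE 0.10), and the highest value was that of *fat-1* sample 1.

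*Sfr1* encodes a partner of SWI5 in homologous recombination (chromosome 19, 47731682 to 47735588, plus strand). The symbol row had 61.7, 62.8 and 55.3 CPM in *fat-1* against 84.9, 94.8 and 84.8 CPM in WT. The row without a symbol had 30.8, 26.8 and 36.8 CPM in *fat-1* against 5.80, 3.73 and 4.97 CPM in WT. As with *Rpa1*, both rows were apart between genotypes and opposite in direction, with log2 fold changes of −0.56 (SE 0.12) and 2.70 (SE 0.24). The *Sfr1* locus sum was among the steadiest of all members, with 92.0, 89.4 and 92.2 CPM in *fat-1* against 90.8, 98.3 and 89.9 CPM in WT, a log2 fold change of −0.03 (SE 0.08).

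*Paxx* encodes a Ku-binding scaffold of non-homologous end joining (chromosome 2, 25455141 to 25461094, minus strand). Here the symbol row was the higher in the *fat-1* samples, with 6.15, 6.28 and 6.86 CPM beside 5.85, 4.87 and 4.66 CPM in WT, with a log2 fold change of 0.33 (SE 0.16). Its row without a symbol was small, with 0.343, 0.201 and 0.250 CPM in *fat-1* against 1.34, 0.810 and 1.15 CPM in WT. The symbol row therefore held 94.7% to 96.9% of the *Paxx* locus in the *fat-1* samples and 80.2% to 85.8% in the WT samples. The locus sums overlapped, with a log2 fold change of 0.10 (SE 0.14).

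*Prpf19* encodes a ubiquitin ligase of the spliceosome that also acts on RPA-coated DNA (chromosome 19, 10895231 to 10909559, plus strand). Its row without a symbol had 9925, 5274 and 2142 counts in *fat-1* samples 1 to 3 and 0 counts in every WT sample. No fold change is given for this row, since the gene was chosen for row differences and the WT counts were 0. The symbol row had 70.9, 64.8 and 101 CPM in *fat-1* against 107, 109 and 98.4 CPM in WT, so *fat-1* sample 3 lay within the WT range. That sample also had the fewest counts in the other row, and the symbol row held 60.0%, 72.4% and 90.8% of the *Prpf19* locus in *fat-1* samples 1 to 3 and 100% in each WT sample. For the *Prpf19* locus sum the log2 fold change was 0.02 (SE 0.12), with 118, 89.2 and 111 CPM in *fat-1* against 107, 109 and 98.5 CPM in WT. The matrix gives no coordinates for assembled rows, so which bases of these genes the rows without a symbol cover was not tested.

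**Figure D1:**
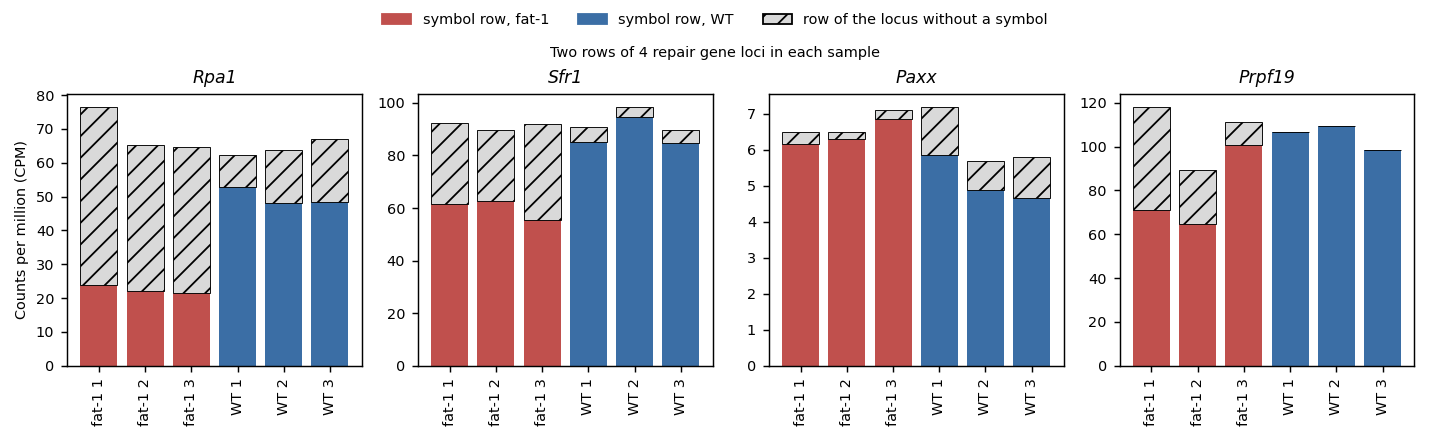
Stacked bars show the CPM of the row with the gene symbol (red for *fat-1*, blue for WT) and of the row of the same locus without a symbol (hatched grey) in each of the 6 samples. In *Rpa1*, *Sfr1* and *Prpf19* the hatched part is larger in the *fat-1* samples while the full bars overlap between genotypes, and in *Paxx* the hatched part is larger in the WT samples.

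In the other members with such a row, the share held by the symbol row overlapped between genotypes. *Chek2*, the checkpoint kinase downstream of ATM, varied most. Its symbol row held 96.8%, 43.3% and 93.2% of the locus in *fat-1* samples 1 to 3 and 48.4%, 74.2% and 73.1% in WT samples 1 to 3, or 77.8% ± 29.9 and 65.2% ± 14.6 (SD, *n* = 3), with *fat-1* sample 2 the lowest. For *Atm*, the kinase that senses broken DNA ends, the symbol row held between 0.527% and 1.43% of the locus. It had 0.257, 0.294 and 0.384 CPM in *fat-1* against 0.500, 0.394 and 0.325 CPM in WT. Nearly all counts of the locus stood in the row without a symbol, and whether that row is *Atm* was not tested. The *Atm* values given below as locus sums, with their correlations, rest on that row. *Chek1*, the kinase downstream of ATR, shared its assembled locus with the neighbouring gene *Stt3a*, a subunit of the oligosaccharyltransferase. The *Chek1* symbol row had 81, 55 and 45 counts in *fat-1* against 67, 111 and 68 counts in WT, at most 0.238% of the locus, and the *Chek1* locus sum is therefore not a measure of *Chek1*. That sum is still included under *Chek1* in the counts, medians, correlations and figures of locus sums below, where it stands for the shared locus only. Other rows of this locus did not overlap between genotypes, which was so for 5.26% of all rows, and they moved in opposite directions. The *Stt3a* row had 50.8, 88.9 and 73.3 CPM in *fat-1* against 108, 129 and 107 CPM in WT. The row without a symbol had 125, 79.9 and 113 CPM in *fat-1* against 74.8, 76.4 and 64.3 CPM in WT.

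Levels of the 47 members differed widely when CPM were divided by the annotated exon length in kb. The exon length is that of GENCODE M21 and the assembled rows may cover other bases, so these levels are approximate. *Trp53* and its targets were the highest group. *Cdkn1a*, which encodes the cyclin-dependent kinase inhibitor p21, had 90.3 ± 7.24 CPM per kb (SD over 6 samples), *Mdm2*, the ubiquitin ligase that degrades p53, had 44.7 ± 3.04, and *Trp53* itself had 40.3 ± 1.18. The ranges of *Mdm2* (41.8 to 49.5) and *Trp53* (38.7 to 41.9) overlapped slightly, and *Sfr1* lay beside them at 48.1 ± 1.69. *Parp1*, the poly(ADP-ribose) polymerase that detects strand breaks, followed at 19.0 ± 4.50 CPM per kb, then *Prpf19* at 14.5 ± 1.39, the mismatch recognition gene *Msh6* at 13.8 ± 0.972 and *Rpa1* at 11.9 ± 0.897. From *Parp1* to *Rpa1*, each gene overlapped the next in this order.

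Several genes of homologous recombination, and the Fanconi anemia genes, had low levels, although *Sfr1* and *Rad52* (3.46 ± 0.197 CPM per kb), also of homologous recombination, lay higher. *Brca1* had 0.561 ± 0.0904 CPM per kb (SD, 6 samples), *Bard1*, its partner in a ubiquitin ligase, had 0.315 ± 0.0889, and *Brca2*, a mediator of homologous recombination, had 0.299 ± 0.0618. The Fanconi core gene *Fanca* had 0.386 ± 0.114 and *Fancd2*, the protein that the core complex ubiquitinates, had 0.205 ± 0.0268. The spreads of *Bard1*, *Brca2* and *Fanca* overlapped, so their order is not resolved. Only the *Chek1* symbol row was lower, at 0.0717 ± 0.0211, with the limit given above.

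Among the genes of break sensing and checkpoint kinases, *Nbn*, a subunit of the MRN complex, was the highest at 10.5 ± 0.408 CPM per kb. Of the excision repair genes, the helicase subunit *Ercc2* had 10.6 ± 0.759, *Ercc1* had 4.60 ± 0.0975 and the replicative ligase gene *Lig1* had 4.28 ± 0.242. The *Pms2* symbol row had 1.32 ± 0.234, well under its mismatch repair partner gene *Msh6*.

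Subunits of the same complex did not have the same level per kb. *Rpa1* had 11.9 CPM per kb, while *Rpa2* and *Rpa3*, the smaller subunits of replication protein A, had 3.98 ± 0.574 and 4.60 ± 0.458, which overlapped each other and lay below every sample of *Rpa1*. In the clamp loader, the large subunit *Rfc1* was the highest with 5.94 ± 0.229 and *Rfc5* the lowest with 1.94 ± 0.483. The Ku genes *Xrcc5* and *Xrcc6* were closer to each other, at 5.10 ± 0.817 and 3.86 ± 0.306. Their catalytic partner *Prkdc* had 1.18 ± 0.116 and the end-joining ligase gene *Lig4* had 1.93 ± 0.117 CPM per kb.

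**Figure D2:**
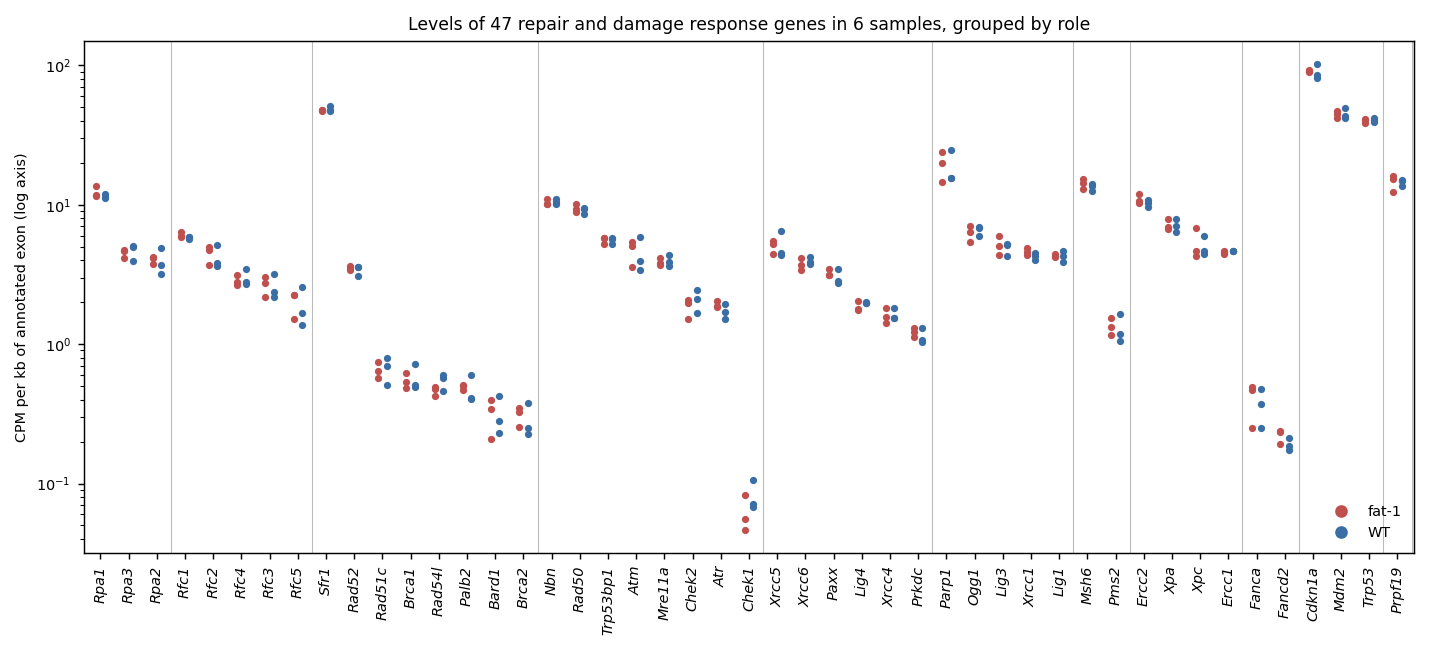
Each point is a sample (red *fat-1*, blue WT), and the vertical log axis gives CPM per kb of annotated exon for 47 genes set in groups by role and divided by grey lines. *Cdkn1a*, *Sfr1*, *Mdm2* and *Trp53* lie highest, *Fancd2* and the *Chek1* symbol row lie lowest, and red and blue points overlap for every gene but *Rfc1* and *Ercc1*.

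Among the 43 members listed for function, no difference between genotypes passed the test. By edgeR's quasi-likelihood test, 0 of 43 symbol rows and 0 of 43 locus sums passed 0.05 after adjustment, and 0 and 0 passed it before adjustment. Over the whole matrix the unadjusted threshold was passed by 2.21% of 30683 rows and 1.14% of 24061 locus sums (0.478% higher and 0.661% lower in *fat-1*), and 0 passed after adjustment. The smallest unadjusted *p*-value of the 43 was 0.156 for the rows (*Rfc1*) and 0.19 for the locus sums (*Rad54l*), each with an adjusted *p*-value of 1. DESeq2 also gave 0 of the 43 before and after adjustment, beside 3.23% and 0.313% of all rows and 1.5% and 0.0332% of all locus sums. The exact test of edgeR gave 0 as well, beside 2% and 0.104% of rows and 1.07% and 0.0249% of locus sums. A count of 0 of 43 is near each of these background shares.

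Locus sums of 26 of the 43 members were higher and those of 17 were lower in *fat-1*, with a median log2 fold change of 0.03 beside 0.00183 over all locus sums tested. The 17 include the locus that *Chek1* shares with *Stt3a*. The median absolute value was 0.0621 for the 43 and 0.108 for all locus sums. The SEs of the 43 ran from 0.0736 (*Trp53*) to 0.342 (*Fanca*) on the log2 scale, and changes of that order were not detectable with 3 samples of each genotype. Differences exceeded their SE for *Rad54l*, *Fancd2*, *Atr*, a kinase that answers to single-stranded DNA (0.16, SE 0.12), and *Xrcc1*, a scaffold of single-strand break repair (0.11, SE 0.10). The values at the ends were those of *Rad54l*, a DNA translocase of homologous recombination, with −0.24 (SE 0.16), and *Fancd2*, with 0.22 (SE 0.18).

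*Rad54l* had 3.27, 3.65 and 3.81 CPM in *fat-1* against 4.42, 4.66 and 3.55 CPM in WT, so WT sample 3 lay within the *fat-1* range. *Fancd2* had 1.51, 1.88 and 1.87 CPM in *fat-1* against 1.37, 1.47 and 1.68 CPM in WT, which also overlapped. Locus sums did not overlap for 2 of the 43, and this was so for 4.15% of all locus sums tested, so 2 of 43 is near the background. They were *Rfc1*, with 36.1, 35.6 and 38.3 CPM in *fat-1* against 35.2, 34.2 and 35.1 CPM in WT, and the nucleotide excision repair endonuclease subunit *Ercc1*, with 13.8, 14.2 and 14.4 CPM and 14.5, 14.4 and 14.6 CPM. Their log2 fold changes were 0.07 (SE 0.09) and −0.04 (SE 0.10), both close to zero. For symbol rows, 1 of 43 did not overlap, beside 5.26% of all rows.

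Genes of the p53 response overlapped between genotypes. *Trp53* had 166, 156 and 164 CPM in *fat-1* against 159, 170 and 163 CPM in WT. *Cdkn1a* had 321, 332 and 318 CPM in *fat-1* against 288, 363 and 304 CPM in WT, so the *fat-1* values lay inside the WT range. The *Mdm2* locus had 214, 239 and 226 CPM in *fat-1* against 213, 252 and 219 CPM in WT, again overlapping. The unadjusted *p*-values of these 3 locus sums lay between 0.823 and 0.905 by edgeR's quasi-likelihood test fitted over all loci.

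*Rpa2* had 11.3, 12.5 and 12.3 CPM in *fat-1* against 10.99, 9.57 and 14.7 CPM in WT, and *Rpa3* had 4.71, 5.37 and 5.30 CPM in *fat-1* against 5.77, 4.49 and 5.70 CPM in WT. In both subunits of replication protein A the *fat-1* values lay inside the WT range. For end joining, *Xrcc5* had 11.3, 13.4 and 14.1 CPM in *fat-1* against 11.6, 11.2 and 16.5 CPM in WT, *Xrcc6* had 15.3, 16.5 and 18.6 CPM in *fat-1* against 16.9, 17.5 and 19.0 CPM in WT, and *Prkdc* had 14.9, 17.3 and 16.0 CPM in *fat-1* against 14.1, 13.7 and 17.2 CPM in WT. WT sample 3 was the highest or next to the highest in all 3 genes. The *Msh6* locus had 66.3, 61.8 and 55.9 CPM in *fat-1* against 59.5, 54.9 and 61.7 CPM in WT, with a log2 fold change of 0.06 (SE 0.10).

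The symbol rows of *Atm*, *Chek1* and *Rfc1*, each with another row in its locus, moved further than most. The *Atm* symbol row had a log2 fold change of −0.38 (SE 0.27) and the *Chek1* symbol row of −0.40 (SE 0.32). The *Rfc1* symbol row had 0.32 (SE 0.20), while its row without a symbol went the other way with −0.38 (SE 0.29). Their unadjusted *p*-values were 0.204, 0.257 and 0.156 for *Atm*, *Chek1* and *Rfc1*, by edgeR's quasi-likelihood test. With a sample left out, these symbol row changes ran from −0.56 (without *fat-1* sample 3) to −0.21 (without WT sample 1) for *Atm*, from −0.67 (without *fat-1* sample 1) to −0.17 (without WT sample 2) for *Chek1*, and from 0.18 (without *fat-1* sample 3) to 0.46 (without WT sample 3) for *Rfc1*.

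**Figure D3:**
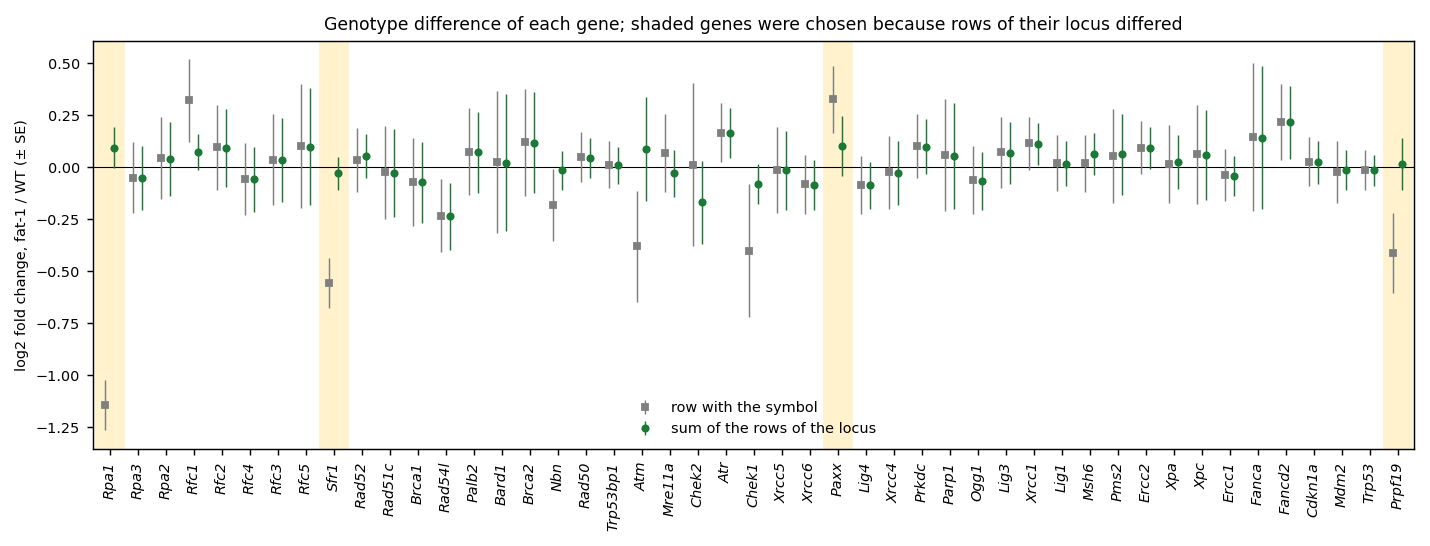
Log2 fold changes of *fat-1* relative to WT, with standard errors, are plotted for the row with the symbol (grey squares) and for the locus sum (green circles) of 47 genes ordered by role. Locus sums lie between −0.24 and 0.22, and the shaded genes *Rpa1*, *Sfr1*, *Paxx* and *Prpf19*, chosen because rows of their loci differed, have squares away from zero beside circles near it. The circle of *Chek1* is the sum of a locus shared with *Stt3a*.

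A further 197 genes of the same or related pathways, listed by function, were all tested. The list includes genes of the p53 response, such as *Cd80* and *Fas*, that are not repair genes themselves. Before adjustment, 0 of their locus sums and 3 of their symbol rows passed 0.05, the 3 rows all higher in *fat-1*, beside 1.07% of all rows in that direction and 1.14% in the other. These were *Mdc1*, the γH2AX-binding mediator (log2 fold change 0.59, SE 0.18), *Rad23b*, a partner of XPC (0.40, SE 0.15), and *Eda2r*, a p53 target of the TNF receptor family (0.87, SE 0.29), each with an adjusted *p*-value of 1 by edgeR's quasi-likelihood test. They were named after their values were seen. Their locus sums had log2 fold changes of 0.05 (SE 0.12), 0.06 (SE 0.08) and −0.22 (SE 0.20), so none of the 3 kept its size when the rows of the locus were added. The median log2 fold change of the 197 locus sums was 0.02.

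Many members varied between isolates of the same genotype. Some of them, such as *Rfc3*, *Brca1* and *Atm*, were higher in the isolates with more immune marker RNA, in both genotypes, and *Ogg1* and *Xpc* were higher in those with less, although no relation passed after adjustment. The mean log2(CPM + 1) of 20 immune markers was 5.29, 6.22 and 5.83 in *fat-1* samples 1 to 3 and 5.26, 5.56 and 6.21 in WT samples 1 to 3. The luminal and basal mean ran the opposite way (*r* = −0.98, as a description of 6 samples), and that of 41 proliferation markers ran with the immune markers (*r* = 0.86). Not every marker ran with the mean of its list. From *fat-1* sample 1 to sample 2, the immune marker *Cd68* went from 860 to 668 CPM. Over the same samples the basal marker *Procr* went from 861 to 1184 CPM and the proliferation marker *Pcna* from 134 to 120 CPM. The mean of 8 fibroblast markers ran with the proliferation markers (*r* = 0.81) and less closely with the immune markers (*r* = 0.49). These contents cannot be told apart here, and their part in what follows was not tested. The immune mean was higher in *fat-1* by 0.103 on the log2 scale with overlapping samples, and 0 of its 20 loci passed 0.05 before adjustment.

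*Rfc3*, a small subunit of the clamp loader, had the highest Pearson's *r* with the immune markers. It had 7.88, 10.9 and 9.89 CPM in *fat-1* 1, 2 and 3 against 7.90, 8.55 and 11.6 CPM in WT 1, 2 and 3. Over the 6 samples, Pearson's *r* was 0.99 by an exact permutation test with *p* = 0.00556 and 0.0935 after adjustment. Spearman's rho was 0.89, with an exact permutation *p* = 0.0333 and 0.164 after adjustment. *Pms2*, a mismatch repair endonuclease whose locus also holds *Rsph10b* and *Gm42421*, had *r* = 0.99 with an exact permutation *p* = 0.00278 (0.0935 after adjustment) and rho = 0.94 with 0.0167 (0.152). *Bard1* had *r* = 0.98 with an exact permutation *p* = 0.0111 (0.0966) and rho = 0.89 with 0.0333 (0.164). Without *fat-1* sample 2 and WT sample 3, which were farthest from the median of the immune mean, *r* was 0.99, 0.95 and 0.98 for *Rfc3*, *Pms2* and *Bard1*. These were 3 of 94 relations computed for the members, all tests were two-sided, and adjustment was over all 24061 loci, of which 0 passed at 0.05. Before adjustment 12 members passed with a positive and 3 with a negative *r*, beside 13.0% and 15.5% of all locus sums.

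Members of the same role did not all run alike. In the clamp loader 3 of 5 genes had *r* of at least 0.9, while *Rfc1* had 0.09 and *Rfc4* had 0.19. The same held for 3 of 8 genes of homologous recombination (*Rad52* had −0.69) and 1 of 8 of break sensing and checkpoint kinases, where *Atm* had 0.98, *Rad50*, a subunit of the MRN complex, −0.49 and *Trp53bp1*, a mediator at broken ends, −0.84. The *Atm* locus had 36.9, 55.7 and 52.2 CPM in *fat-1* against 35.0, 40.6 and 60.7 CPM in WT, nearly all in its row without a symbol. *Parp1* had 76.6, 126 and 106 CPM in *fat-1* against 82.9, 82.1 and 131 CPM in WT. *Rfc5* had 7.08, 10.5 and 10.5 CPM and 6.36, 7.82 and 12.0 CPM, respectively. In each, sample 1 of both genotypes was among the low values, and *fat-1* sample 2 and WT sample 3 were the highest of their genotype. *Brca1* had 4.15, 5.25 and 4.60 CPM in *fat-1* against 4.23, 4.36 and 6.14 CPM in WT, and *Brca2* had 3.49, 4.75 and 4.46 CPM and 3.10, 3.43 and 5.19 CPM. The ratio of the highest to the lowest sample was 2.04 for *Bard1*, 1.98 for *Fanca*, 1.89 for *Rfc5* and 1.74 for *Atm*, beside a median of 1.3 over the 43 members.

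In all, 10 of the 47 members (21.3%) had *r* of at least 0.9 with the immune markers, beside 8.08% of all locus sums, and *r* was positive for 30 (63.8%), beside 49.4%. The 10 were *Rfc2*, *Rfc3*, *Rfc5*, *Brca1*, *Brca2*, *Bard1*, *Atm*, *Parp1*, *Pms2* and *Fanca*. At the other end, 2 of 47 (4.26%) had *r* of at most −0.9, beside 9.24%. Within each genotype, 11 members (23.4%) rose in the order of the immune markers, which was *fat-1* samples 1, 3 and 2 and WT samples 1, 2 and 3, beside 10.2% of all locus sums, and 2 (4.26%) fell in it, beside 14.2%. The members are not independent of each other, and no test was made of these counts. Of the 24061 locus sums, 14739 reached 1 CPM in 3 samples, as all 43 members listed for function did. The background therefore holds loci at lower levels, and no share matched for level was computed, here or for the proliferation markers below. Among the 197 other listed genes, which include p53 response genes such as *Cd80* and *Fas*, 38 (19.3%) had *r* of at least 0.9.

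*Ogg1*, the glycosylase that removes oxidized guanine, ran against the immune markers. It had 15.4, 11.8 and 14.0 CPM in *fat-1* against 15.1, 14.9 and 13.1 CPM in WT, with *r* = −0.93 by an exact permutation *p* = 0.00417 (0.0935 after adjustment), rho = −0.94 with 0.0167 (0.152), and *r* = −0.94 without the 2 farthest samples. *Xpc*, the damage sensor of global nucleotide excision repair, had 37.4, 23.4 and 25.5 CPM in *fat-1* against 32.9, 25.7 and 24.2 CPM in WT. Sample 1 of each genotype, with the highest luminal and basal marker means of its group, held the highest *Xpc* value. *Lig3*, the ligase that seals single-strand breaks with XRCC1, had *r* = −0.90 with an exact permutation *p* = 0.0181 (0.112) and rho = −0.77 with 0.103 (0.293), and *r* was −0.55 without the 2 farthest samples. *Xpc* had *r* = −0.87 with an exact permutation *p* = 0.0264 (0.126), rho = −0.94 with 0.0167 (0.152), and *r* = −0.87 without them.

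Against the proliferation markers, 4 members (8.51%) had *r* of at least 0.9, beside 5.05% of all locus sums, 2 had *r* of at most −0.9, beside 4.72%, and *r* was positive for 61.7%, beside 50.3%. Before adjustment 7 members passed 0.05 with a positive and 2 with a negative *r*, beside 11.1% and 11.7%, and 0 of 24061 loci passed after it. *Fanca* had *r* = 0.99 with an exact permutation *p* = 0.00278 (0.163 after adjustment) and rho = 0.94 with 0.0167 (0.208), and *r* was 0.88 without *fat-1* sample 1 and WT sample 1, the farthest from the median of those markers. *Bard1* had *r* = 0.92 with an exact permutation *p* = 0.0153 (0.178) and rho = 0.94 with 0.0167 (0.208), and *Rfc5* had *r* = 0.92 with 0.00972 (0.171) and rho = 0.89 with 0.0333 (0.261). Without these samples *r* was 0.65 for *Bard1* and 0.87 for *Rfc5*. *Xrcc4*, the scaffold of the end-joining ligase, had *r* = −0.95 with an exact permutation *p* = 0.0167 (0.182) and rho = −0.83 with 0.0583 (0.269). *Xpc* had *r* = −0.94 with an exact permutation *p* = 0.0181 (0.182) and rho = −0.83 with 0.0583 (0.269). These relations of *Xrcc4* and *Xpc* rest on the samples named, since *r* was −0.56 and −0.15 without them. *Lig3* had *r* = −0.74 with an exact permutation *p* = 0.0958 (0.280) and rho = −0.89 with 0.0333 (0.261), and *r* was −0.37 without them.

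**Figure D4:**
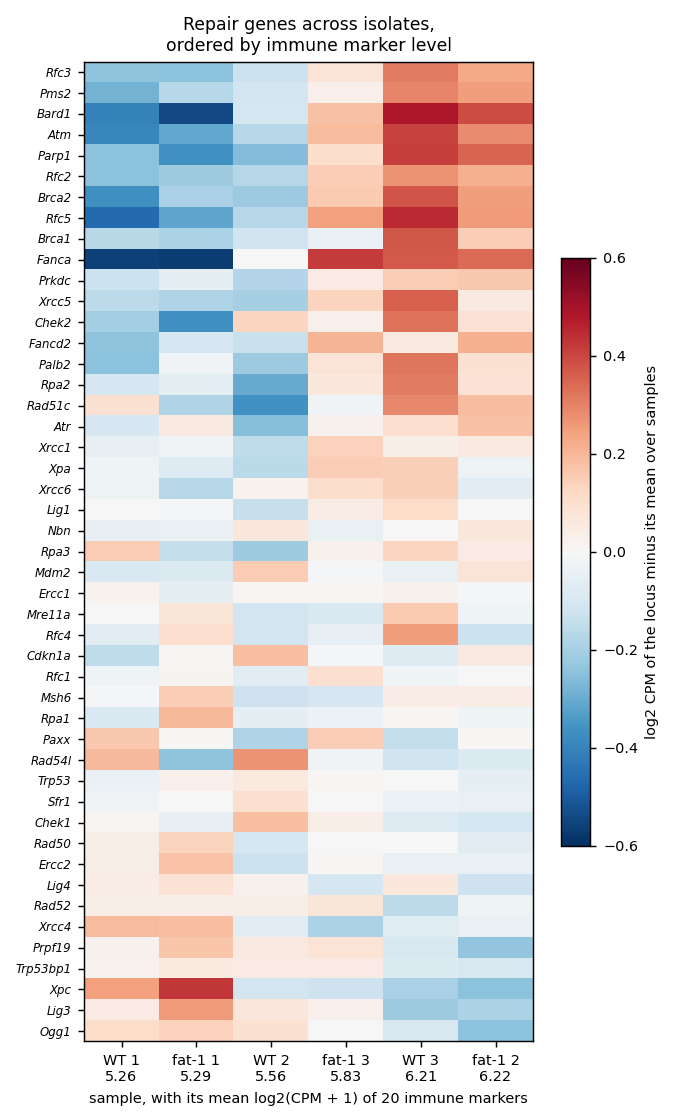
Colour gives the log2 CPM of each locus minus its mean over the 6 samples (red higher, blue lower) for 47 genes, with genes ordered from the highest to the lowest correlation with the immune markers and samples from the lowest to the highest mean immune marker level, printed under each sample. The top genes turn from blue in WT 1 and *fat-1* 1 to red in WT 3 and *fat-1* 2, and *Xpc*, *Lig3* and *Ogg1* at the bottom turn the other way. The line of *Chek1* is the sum of a locus shared with *Stt3a*.

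**Figure D5:**
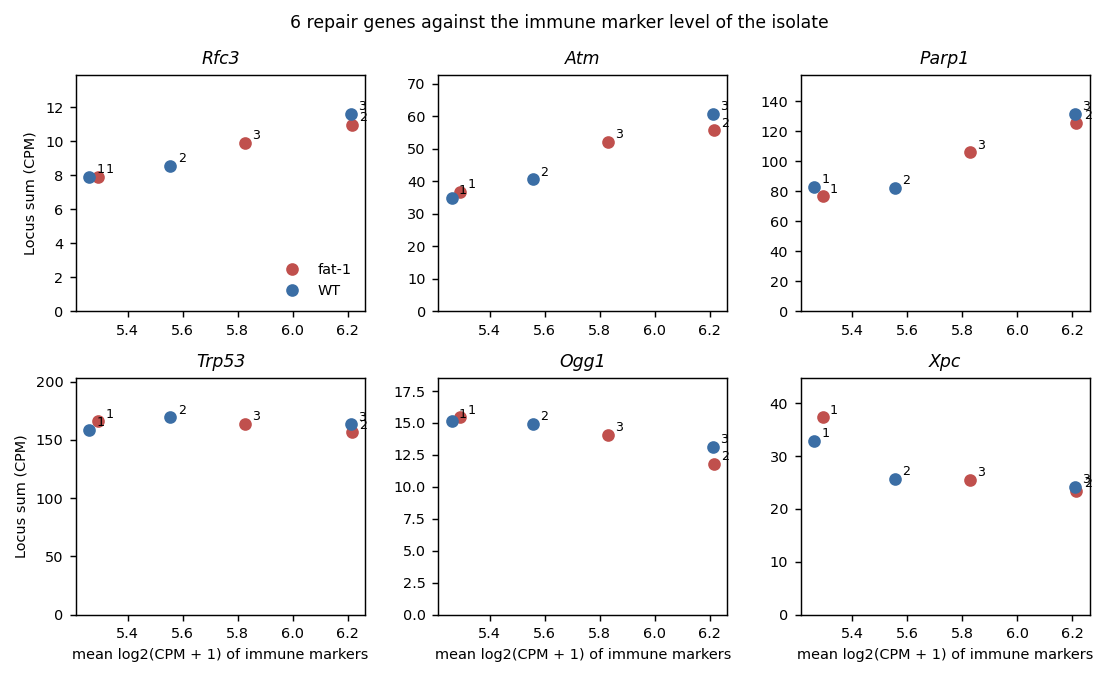
The locus sum in CPM, on axes that start at 0, is plotted against the mean log2(CPM + 1) of 20 immune markers for *Rfc3*, *Atm*, *Parp1*, *Trp53*, *Ogg1* and *Xpc*, with a numbered point for each sample (red *fat-1*, blue WT). Points of both genotypes lie along the same course, rising for *Rfc3*, *Atm* and *Parp1*, level for *Trp53* and falling for *Ogg1* and *Xpc*.

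E2F factors are known to act at promoters of clamp loader and BRCA genes in cycling cells, and letters that they bind were searched for in the promoters of the members. RefSeq promoters (GRCm38.p6, 250 bases before to 50 after a start, within 1000 bases of the annotated start of the gene) were matched for 40 of the 47 members. The letters TTTCCCGC, TTTGGCGC, TTTCGCGC or TTTGCCGC, searched on both strands, were found in 6 of these 40, beside 3.22% of 14265 promoters. They were in *Rfc3*, *Bard1* and *Brca2* among 9 matched members with *r* of at least 0.9, and in *Msh6* alone among 15 with negative *r*. The *r* of *Msh6* was only −0.02, so it did not run against the immune markers. The other promoters with these letters were those of *Chek2* (*r* = 0.82) and *Rad51c* (*r* = 0.64), which are in neither group. The letters CCAAT were in 23 of the 40, beside 38.9% of all, and the NRF1 letters GCATGCGC in 6 of the 40, beside 4.13%. CCAAT was in 5 of the same 9 and 8 of the same 15, and the NRF1 letters in 1 of the 9 and 1 of the 15. The 9 and the 15 were set by *r* in these data, the 15 include *Chek1* by its shared locus, and no difference between them was tested for any motif. In the 40 promoters no match of one motif overlapped that of another, and a match is a description of letters and not a binding site. Capitals mark the E2F letters in *Rfc3* (chr5:151651159-151651458, minus strand), *Bard1* (chr1:71102923-71103222, minus strand) and *Brca2* (chr5:150522371-150522670, plus strand), chosen because they hold these letters, while the other 6 matched members with *r* of at least 0.9 do not and are not shown. They are set beside *Ogg1* (chr6:113326726-113327025, plus strand), a gene that ran the other way and has no such letters in this window.
Rfc3: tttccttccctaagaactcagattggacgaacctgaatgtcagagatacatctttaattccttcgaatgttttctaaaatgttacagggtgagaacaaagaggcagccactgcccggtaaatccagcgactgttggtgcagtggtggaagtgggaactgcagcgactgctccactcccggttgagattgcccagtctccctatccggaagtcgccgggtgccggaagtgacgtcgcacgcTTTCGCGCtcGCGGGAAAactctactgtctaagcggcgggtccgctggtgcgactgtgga
Bard1: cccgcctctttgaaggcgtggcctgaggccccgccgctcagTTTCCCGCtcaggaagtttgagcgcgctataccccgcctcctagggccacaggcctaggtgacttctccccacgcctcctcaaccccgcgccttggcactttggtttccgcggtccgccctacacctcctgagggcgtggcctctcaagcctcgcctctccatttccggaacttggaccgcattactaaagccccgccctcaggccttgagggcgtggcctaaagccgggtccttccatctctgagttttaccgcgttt
Brca2: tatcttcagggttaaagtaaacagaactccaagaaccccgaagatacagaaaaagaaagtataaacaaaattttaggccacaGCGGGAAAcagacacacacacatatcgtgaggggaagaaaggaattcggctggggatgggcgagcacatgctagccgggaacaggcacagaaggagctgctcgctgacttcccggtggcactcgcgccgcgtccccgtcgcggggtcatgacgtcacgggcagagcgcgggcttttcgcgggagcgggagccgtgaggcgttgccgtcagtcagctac
Ogg1: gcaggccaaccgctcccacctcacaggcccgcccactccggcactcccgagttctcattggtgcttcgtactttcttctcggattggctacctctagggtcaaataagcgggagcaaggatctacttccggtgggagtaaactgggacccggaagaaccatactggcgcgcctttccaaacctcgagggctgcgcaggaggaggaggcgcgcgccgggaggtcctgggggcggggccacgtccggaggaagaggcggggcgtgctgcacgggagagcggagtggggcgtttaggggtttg

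In 24 of the 47 members, annotated exon bases are shared with another gene, mostly on the opposite strand, and the sources used here do not say whether strand was used in counting. Among the genes that ran with or against the immune markers this holds for *Rfc2*, *Rfc5*, *Brca2*, *Parp1*, *Pms2*, *Fanca*, *Ogg1* and *Lig3*. In *Lig3*, 1826 of 7284 exon bases are shared with *Rffl*, and in *Ogg1*, 232 of 2187 with *Camk1*, both on the opposite strand. *Rfc3*, *Brca1*, *Bard1*, *Atm* and *Xpc* share none.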

How the data were processed

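RNA-Seq was performed on 3 *fat-1* and 3 WT pooled samples, grouped by the sample labels. The authors mapped paired-end reads to GRCm38 with HISAT2, assembled transcripts with StringTie and deposited estimated counts per row, as whole numbers and not normalized. How coverage became counts, the annotation and the strand setting are not given in the sources used here. Total counts were 204539059 to 232148824 for each sample.

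Counts were analysed as rows and as sums of all rows with the same locus number (53912 loci). R 4.3.3 and edgeR 4.0.16 were used with filterByExpr, TMM, genotype as the only term, glmQLFit (legacy = FALSE) and glmQLFTest, with Benjamini–Hochberg adjustment over all features and a threshold of 0.05. SE was taken as |log2 fold change| over the root of the F statistic. CPM use normalized library sizes, and log2(CPM + 1) was used for markers and correlations, whose exact permutation tests used all 720 orders of 6 samples. DESeq2 1.42.0 (Wald), edgeR's exact test, other filters and normalizations, other terms and leaving out each sample were alternatives. The tests were tried on simulated data first. Gene positions and exon lengths are from GENCODE M21 (GRCm38), matched by symbol, and marker and repair gene lists were matched by symbol or RefSeq synonym. Summaries used Python 3.11.15, pandas 2.3.3 and scipy 1.17.1, and plots matplotlib 3.10.9 with numpy 2.4.6.

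Members and gene lists were chosen with earlier results of these data known. Named genes were the 4 chosen for row differences, any member under the unadjusted threshold, a fixed set of central repair genes, the highest and lowest of each role in level, the most variable members, and those most and least correlated with the markers. *Rad54l*, *Atr*, *Xrcc1*, *Rad52*, *Rfc4*, *Rad50*, *Trp53bp1* and, of the 197 other listed genes, *Mdc1*, *Rad23b* and *Eda2r* were chosen after their values were seen. Nothing states that the pools of a genotype share no mice, so *p*-values measure the spread between these samples.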

Additional observations from a re-analysis of the deposited data

How the results depend on the processing

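The count of 0 of 43 members at the unadjusted threshold, for rows and for locus sums, was the same under all 15 alternatives: DESeq2 size factors, library totals, no filter on low counts, a filter of 1 CPM in 3 samples (41 of the 43 rows tested), DESeq2, the exact test, the older quasi-likelihood fit, a replicate block, an immune marker term, and leaving out each of 6 samples (0 to 0). The median log2 fold change of the 43 locus sums lay between 0.0127 and 0.0418 under the first 9. With a sample left out it lay between −0.0281 (without WT sample 1, where its sign turned) and 0.0921 (without WT sample 3). With a sample left out, the symbol row of *Rpa1* lay between −1.18 and −1.10, of *Sfr1* between −0.59 and −0.50, of *Paxx* between 0.26 and 0.43 and of *Prpf19* between −0.63 and −0.29. The locus sums of *Sfr1* (−0.04 to 0.01) and *Prpf19* (−0.06 to 0.13) crossed zero, and those of *Rpa1* (0.02 without *fat-1* sample 1 to 0.14 without WT sample 3) and *Paxx* (0.04 without WT sample 2 to 0.22 without WT sample 1) moved by over 1.5 times.

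Background counts over all features moved more. Beside 678 rows and 274 locus sums, any count kept gave 1136 and 579, the immune marker term 1118 and 673, the 1 CPM filter 382 and 63, leaving out *fat-1* sample 1 gave 482 locus sums and leaving out WT sample 3 gave 542. The labels number the samples 1 to 3 in each genotype, but same-numbered samples did not deviate together throughout (correlations over loci of 0.799, −0.164 and 0.132), so the numbers were not taken as pairs. With the replicate block 784 rows (2.56%) and 376 locus sums (1.56%) passed before adjustment, 0 of them among the 43, and the median of the 43 locus sums was 0.0311.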
